A study of Mus musculus with 6 samples.

Results

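Integrins, laminins and nidogens are the genes by which cells build basement membranes and hold on to them. The set was taken by gene symbol alone and holds 39 of the 20672 genes in any of the deposited count tables: 18 integrin alpha chains, 8 integrin beta chains, 11 laminin chains (5 alpha, 3 beta and 3 gamma) and both nidogens. Of these, 38 were listed in the count tables of all 3 tissues, and 37 passed the filter on low counts and were tested. Lama1 was listed in the fat pad count table only, and Itgad had 18 counts or fewer in each library.

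RNA was sequenced from 3 parts of the mouse hind limb, 2 libraries per tissue: the infrapatellar fat pad, which is the fat body under the kneecap, the rectus femoris, a thigh muscle, and the Achilles tendon. The animals were female, per the series title, and their strain, age and number were not stated in the labels read. The series concerns letrozole, an inhibitor of the oestrogen-making enzyme aromatase. Both fat pad titles carry the drug's name and the other 4 titles do not, and no label marks a treated and an untreated library of 1 tissue, so in every comparison with the fat pad the drug and the tissue cannot be told apart. In the source and tissue fields all 6 libraries carry the fat pad's name, and the groups follow the treatment field, which names the 3 tissues. The batch label is the same for all 6, but a code in the titles, whose meaning is not given, is shared within each tissue and differs between tissues, and the fat pad and tendon titles are marked as combined while those of the rectus femoris are not. What these marks stand for and the tissue cannot be told apart. Whether a pair of libraries stands for different animals is not stated, and the p-values speak only of how far these libraries lie apart, which may be technical.

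Integrins are receptors of 1 alpha and 1 beta chain that span the cell membrane and tie the matrix outside to the actin cytoskeleton inside. The alpha chain largely sets the ligand: some bind collagens, some laminins, some proteins with an RGD motif such as fibronectin and vitronectin, and some, on leukocytes, bind other cells. Laminins are cross-shaped trimers of an alpha, a beta and a gamma chain that form the sheet of every basement membrane, around each muscle fibre, fat cell, vessel and nerve, and nidogens link that sheet to the collagen IV network.

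The promoters of 6 members called in both fat pad comparisons are shown. Itga2b, Itgam and Itgb7 were called higher in fat pad than in both other tissues, and Itga10, Itga2 and Itgav lower than in both. Of these, only Itga10 and Itga2 kept both calls in every alternative run described below. Each promoter is the 250 bases before the gene's start, from RefSeq on GRCm38.p6. Windows were found for 24 of the 39 members, at chr11:102469884-102470133 (minus strand) for Itga2b, chr7:128062390-128062639 (plus strand) for Itgam, chr15:102231936-102232185 (minus strand) for Itgb7, chr3:96645334-96645583 (plus strand) for Itga10, chr13:114932101-114932350 (minus strand) for Itga2 and chr2:83724147-83724396 (plus strand) for Itgav. Capitals mark GAGGAA, the core of sites for Ets factors of blood cells, or TTCCTC, the same letters on the other strand.
Itga2b: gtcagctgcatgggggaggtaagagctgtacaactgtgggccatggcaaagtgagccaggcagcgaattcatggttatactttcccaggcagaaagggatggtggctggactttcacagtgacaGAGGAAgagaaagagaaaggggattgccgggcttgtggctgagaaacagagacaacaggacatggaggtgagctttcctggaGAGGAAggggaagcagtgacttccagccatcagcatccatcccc
Itgam: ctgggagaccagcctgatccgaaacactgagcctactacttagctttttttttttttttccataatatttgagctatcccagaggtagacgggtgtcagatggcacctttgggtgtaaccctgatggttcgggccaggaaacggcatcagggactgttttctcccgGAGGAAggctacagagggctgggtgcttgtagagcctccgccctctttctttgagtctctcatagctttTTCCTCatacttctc
Itgb7: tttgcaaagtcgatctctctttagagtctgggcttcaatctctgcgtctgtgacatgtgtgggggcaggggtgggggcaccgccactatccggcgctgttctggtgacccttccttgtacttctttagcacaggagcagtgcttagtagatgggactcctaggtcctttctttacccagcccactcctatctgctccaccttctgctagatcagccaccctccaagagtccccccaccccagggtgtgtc
Itga10: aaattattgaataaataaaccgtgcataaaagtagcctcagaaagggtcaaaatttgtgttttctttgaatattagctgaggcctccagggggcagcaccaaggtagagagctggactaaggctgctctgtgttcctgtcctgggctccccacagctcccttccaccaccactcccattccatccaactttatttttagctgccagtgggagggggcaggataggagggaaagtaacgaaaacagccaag
Itga2: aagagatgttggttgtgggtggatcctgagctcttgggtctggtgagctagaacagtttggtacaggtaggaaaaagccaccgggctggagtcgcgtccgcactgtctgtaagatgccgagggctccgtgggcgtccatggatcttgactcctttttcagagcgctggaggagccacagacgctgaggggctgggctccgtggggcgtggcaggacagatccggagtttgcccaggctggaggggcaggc
Itgav: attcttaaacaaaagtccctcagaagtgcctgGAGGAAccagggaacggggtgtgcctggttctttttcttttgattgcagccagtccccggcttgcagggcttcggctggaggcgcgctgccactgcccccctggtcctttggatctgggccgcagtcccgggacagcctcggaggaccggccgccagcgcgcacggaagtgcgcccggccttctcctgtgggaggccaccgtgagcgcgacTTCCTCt
GAGGAA was found at 2 places, counting both strands, in the windows of Itga2b, Itgam and Itgav, and at none in those of Itgb7, Itga10 and Itga2, so it did not separate the members by direction. Against the tendon it was held by 2 of the 3 windows of members called higher in the fat pad and by 10 of the 18 of members called lower. It was held by 12 of the 24 member windows and by 23.3% of 32851 promoters of the same length. AGATAA, the core bound by GATA factors, searched on the other strand as TTATCT, was held by 1 member window, that of Itgax, and by 9.99% of promoters. A match of these letters is a description and not a measured binding site.

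Library totals were 83132413 and 106319037 counts for fat pad, 56216295 and 58544836 for rectus femoris, and 59042675 and 62063826 for tendon. Levels are given as CPM, the counts divided by library size and scaled by the trimmed mean of M-values (TMM). With 3 reads as the limit and counting error only, a count of 0 allows up to 0.0534 CPM in the least deep library. That limit leaves out the TMM factor, which is 0.726 in that library, rectus femoris library 1. On the TMM scale the limit there is higher: 4 counts of Itgad stood at 0.0980 CPM. Fold changes come from edgeR's quasi-likelihood test over 15856 genes with Benjamini-Hochberg adjustment, and a gene is called where its adjusted p is under 0.05. Markers followed the label that names 3 tissues: the summed CPM of 8 adipocyte markers was 73085 and 80139 in the fat pad and 3399 or less elsewhere, that of 8 fast muscle fibre markers was 237740 and 209901 in the rectus femoris, and that of 7 tenocyte markers was 18399 and 18935 in the tendon. Muscle fibre markers were also present in the tendon libraries, at 10419 and 49177 CPM for the fast list and 9650 and 4880 for the slow list.

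1 property of the tables touches every comparison with the fat pad. The fold change of all genes fell with exonic length: over fat pad and rectus femoris, the median log2 fold change went from 1.23 in the shortest eighth of genes to -0.65 in the longest, and over fat pad and tendon from 1.28 to -0.95. Between tendon and rectus femoris it went from -0.12 to 0.22. The members are long genes, from 2770 exonic bases in Itgb7 to 18599 in Itga1, so most lie where the median of all genes is below 0. A second fit with an offset for exonic length, chosen after seeing the data, is therefore given beside the counts of calls, and for a gene where it ends the call. Lengths were available for 99.8% of the genes tested.

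**Figure D1:**
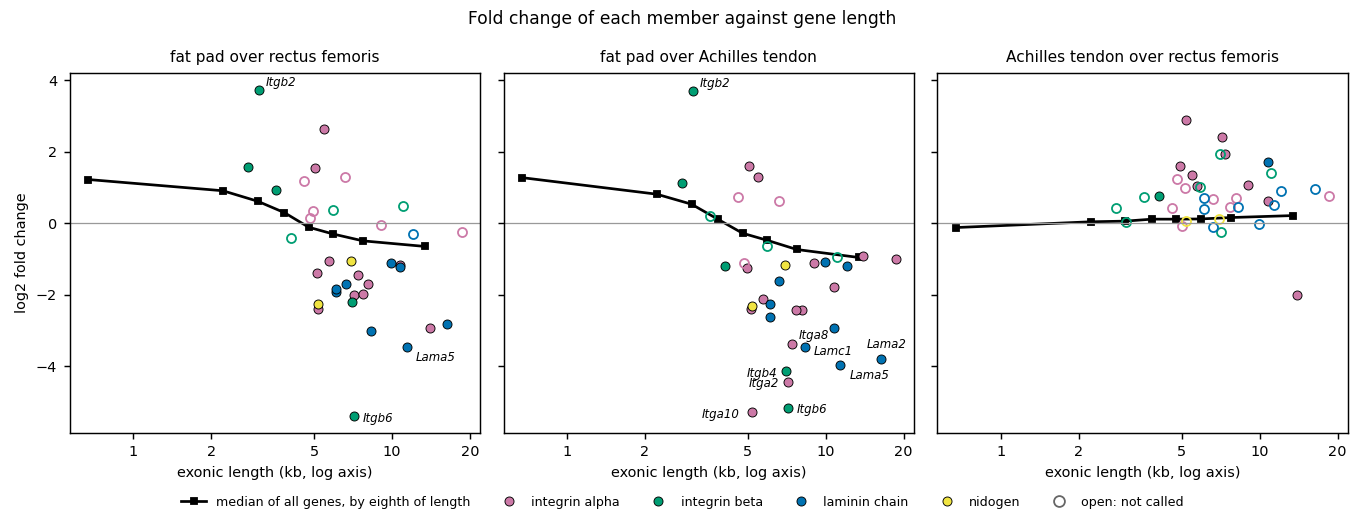
Log2 fold change (vertical axis) against exonic length in kilobases (log axis) for 36 of the 37 members tested, in each of the 3 comparisons between tissues. Filled points passed an adjusted p of 0.05, open points did not, and the black line joins the median of all genes in each eighth of length, at the geometric middle of the class, with the longest class drawn to 20 kb. Most members lie below the line in both fat pad comparisons, and Itgb2 lies furthest above it.

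By the main test most members were called lower in fat pad than in each other tissue. Those called higher were integrins of blood cells and, against the rectus femoris only, Itgb5. Called in neither direction were 11 members against the rectus femoris and 7 against the tendon. Against the rectus femoris 21 of the 37 members tested were lower in the fat pad, where 29.6% of all genes were, and 5 were higher, where 29.8% of all genes were. The members' median log2 fold change was -1.10 and that of all genes 0.14. Against the tendon 26 members were lower (31.4% of all genes) and 4 higher (27.2%), with medians of -1.25 for the members and -0.01 for all genes. With length offsets the counts were 18 lower and 6 higher against the rectus femoris, and 19 lower and 3 higher against the tendon, with member medians of -0.59 and -0.93. In that fit 31.1% and 28.3% of all genes were lower, and 26.5% and 25.3% higher.

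Between tendon and rectus femoris 10 members were higher in the tendon, where 13.3% of all genes were, and 1 was lower, where 12.7% were. The member median was 0.73 and that of all genes 0.10. With length offsets the counts were 8 and 1, where 11.4% and 18.1% of all genes were called. By the DESeq2 Wald test the members called higher and lower were 5 and 21, 4 and 26, and 13 and 1 in the 3 comparisons, in that order, beside 31.1% and 28.5%, 29.8% and 29.4%, and 16.3% and 17.7% of all genes. By limma on TPM values they were 2 and 23, 1 and 31, and 20 and 0, beside 22.2% and 42.4%, 11.8% and 58%, and 33% and 3.96%. Scaling by total counts in place of TMM shifted the median of all genes by 0.51 (fat pad over rectus femoris), -0.21 (fat pad over tendon) and 0.73 (tendon over rectus femoris), where DESeq2 size factors shifted it by 0.11 for fat pad over tendon. Total counts gave 7 members higher and 15 lower, 2 and 26, and 25 and 1. Of all genes 40% were higher and 21.6% lower on that scale, 23.2% and 34.4%, and 37.6% and 2.51%. Fold changes are therefore relative to the TMM scale. In bulk tissue, fewer cells of a type and less RNA per cell cannot be told apart.

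Across every alternative run (scalings, DESeq2, TPM, filters, length offsets, replicate block and each library left out in turn), 14 of the 26 calls against the rectus femoris and 20 of the 30 against the tendon held. The matching share of all called genes is not given, so these counts are not read as a trait of the members. Higher in the fat pad in every alternative run were Itgb2 against both tissues and Itga2b against the rectus femoris. The members lower in the fat pad against both tissues in every one were Itga2, Itga7, Itga8, Itga9, Itga10, Itgb6, Lama2, Lama5, Lamb2, Lamc1 and Nid2, while Itga4 was so against the rectus femoris only. None of the 11 calls between tendon and rectus femoris held in every one.

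**Figure D2:**
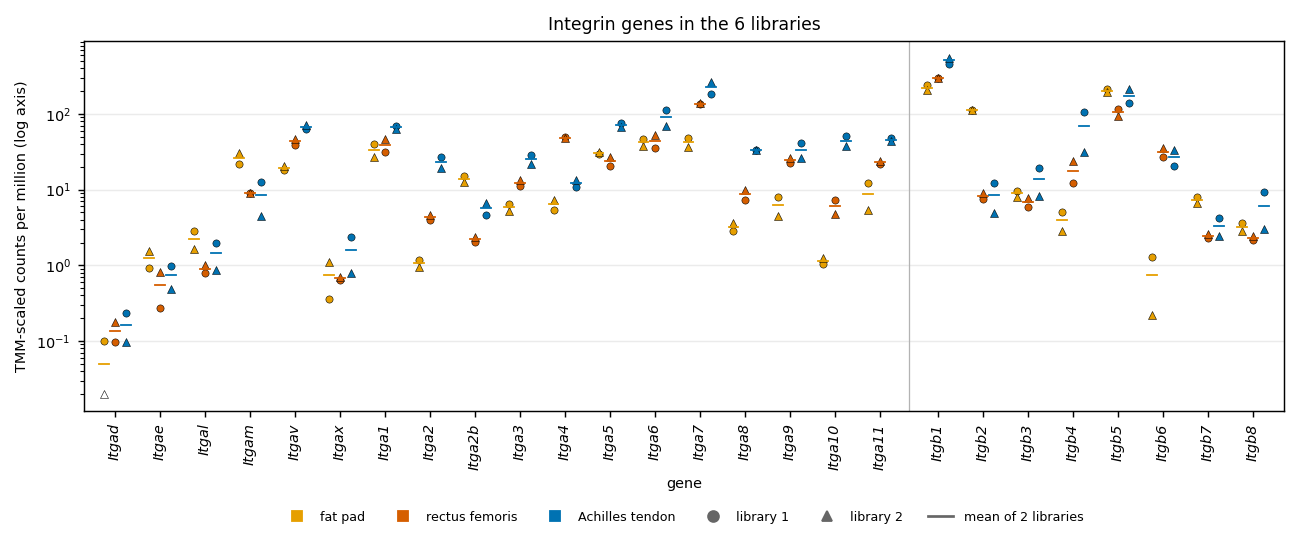
TMM-scaled CPM (log axis) of the 26 integrin genes in the 6 libraries, alpha chains on the left and beta chains on the right. Circles are library 1, triangles library 2 and short lines the mean of both; an open symbol at the bottom is a count of 0. Itgb2, Itgam, Itga2b and Itgb7 are highest in the fat pad, and Itga2, Itga8 and Itga10 climb from fat pad to rectus femoris to tendon.

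The 4 collagen-binding alpha chains (Itga1, Itga2, Itga10 and Itga11) were all lower in fat pad than in tendon, where 31.4% of all genes were. Of the 4, 3 were lower than in the rectus femoris, where 29.6% of all genes were. All 4 pair with Itgb1. Itga10, a receptor of cartilage and other fibrous tissues, measured 1.03 and 1.24 CPM in the fat pad, 7.30 and 4.71 in the rectus femoris, and 50.4 and 37.9 in the tendon. The 3 tissues did not overlap. Its log2 fold change of fat pad over tendon was -5.28 ± 0.34 (SE; edgeR adjusted p = 7.34e-05), the lowest of any member in that comparison, and against the rectus femoris it was -2.40 ± 0.30 (edgeR adjusted p = 0.000567). About 33.5% of the exonic bases of Itga10 are shared with exons of other genes. The largest overlap is with Gm42957, which had 0 to 251 counts per library. The count of Itga10 is therefore uncertain, by an amount that was not tested.

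Itga2 measured 1.18 and 0.960 CPM in the fat pad, 3.97 and 4.67 in the rectus femoris, and 26.6 and 19.5 in the tendon. It followed the same order with no overlap, at a log2 fold change of -4.43 ± 0.31 over fat pad and tendon (edgeR adjusted p = 8.71e-05). Itga11, a receptor for fibrillar collagens on fibroblasts, measured 12.1 and 5.40 CPM in the fat pad, 21.6 and 24.2 in the rectus femoris, and 48.2 and 43.3 in the tendon, and was again highest in both tendon libraries. Its log2 fold change over fat pad and tendon was -2.39 ± 0.37 (edgeR adjusted p = 0.00156). Over fat pad and rectus femoris it was -1.39, and without rectus femoris library 2 the edgeR adjusted p was 0.0633.

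Itga1, a collagen IV receptor of smooth muscle and capillary cells, varied least of the 4. It measured 40.2 and 26.6 CPM in the fat pad, 31.9 and 46.4 in the rectus femoris, and 70.0 and 63.8 in the tendon. Fat pad and rectus femoris overlapped, and both tendon libraries lay above them, with a log2 fold change of fat pad over tendon of -1.0 ± 0.27 (edgeR adjusted p = 0.0160). With length offsets this fold change was -0.01, and the call was also lost without fat pad library 2 (edgeR adjusted p = 0.0813) or tendon library 1 (edgeR adjusted p = 0.0553).

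The 3 laminin-binding alpha chains, Itga3, Itga6 and Itga7, were lower in fat pad than in tendon, where 31.4% of all genes were. Itga7, the main laminin receptor of skeletal muscle fibres, had the highest level per exonic length of any integrin alpha chain in both rectus femoris and both tendon libraries. It measured 48.1 and 36.8 CPM in the fat pad, 135 and 139 in the rectus femoris, and 185 and 268 in the tendon. The tissues did not overlap, and the log2 fold change was -2.41 ± 0.26 over fat pad and tendon (edgeR adjusted p = 0.000329) and -1.69 ± 0.26 over fat pad and rectus femoris (edgeR adjusted p = 0.00132). Per kilobase of exon it reached 22.8 and 33.1 CPM in the tendon, where the next alpha chain, Itga5, had 15.5 and 13.8, and 16.7 and 17.2 in the rectus femoris, where no other alpha chain was above 5.78. Both tendon libraries held muscle fibre markers at the sums given above, and the higher Itga7 value was in the library with more of the fast markers; their part in the result was not tested.

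Itga3 measured 6.48 and 5.18 CPM in the fat pad, 11 and 13.2 in the rectus femoris, and 28.5 and 21.7 in the tendon. The 3 tissues were in that order with no overlap, at a log2 fold change of -2.11 ± 0.26 over fat pad and tendon (edgeR adjusted p = 0.000512). Over fat pad and rectus femoris it was -1.06, a call that was lost without rectus femoris library 2 (edgeR adjusted p = 0.0653). Itga6, the partner of both Itgb1 and Itgb4, measured 47.1 and 37.7 CPM in the fat pad, 35.0 and 52.2 in the rectus femoris, and 113 and 68.7 in the tendon. Fat pad and rectus femoris overlapped, and the fold change over fat pad and tendon was -1.10 ± 0.31 on the log2 scale (edgeR adjusted p = 0.0188). With length offsets it was -0.29, and the edgeR adjusted p rose to 0.0542, 0.108 and 0.0998 without fat pad library 1, fat pad library 2 and tendon library 1.

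The alpha chains that bind RGD proteins did not move together: Itga5, Itga8 and Itgav were lower in fat pad than in tendon, while Itga2b was higher. Itga8, a receptor for nephronectin on smooth muscle and other contractile cells, measured 2.82 and 3.57 CPM in the fat pad, 7.40 and 10.0 in the rectus femoris, and 33.8 and 33.2 in the tendon. The tissues did not overlap, and the log2 fold change over fat pad and tendon was -3.39 ± 0.26 (edgeR adjusted p = 0.00011). Itgav, which pairs with several beta chains, measured 18.1 and 20.7 CPM in the fat pad, 39.4 and 47.2 in the rectus femoris, and 63.9 and 70.4 in the tendon. It kept the same order, with -1.79 ± 0.18 over fat pad and tendon (edgeR adjusted p = 0.000266). Against the rectus femoris it was -1.15, and -0.53 with length offsets, where the call was lost (edgeR adjusted p = 0.0506).

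Itga5, the fibronectin receptor chain, measured 29.8 and 31.1 CPM in the fat pad, 20.8 and 27 in the rectus femoris, and 76.5 and 68.0 in the tendon. Only the tendon stood apart by the test, at -1.25 ± 0.19 over fat pad and tendon on the log2 scale (edgeR adjusted p = 0.00143). Against the rectus femoris the fat pad value was 0.35 (edgeR adjusted p = 0.152), and with length offsets 0.51 (edgeR adjusted p = 0.0455). Itga2b, the alpha chain of the platelet fibrinogen receptor, ran the other way, at 15.1 and 12.4 CPM in the fat pad, 2.03 and 2.36 in the rectus femoris, and 4.64 and 6.65 in the tendon. It was highest in both fat pad libraries with no overlap, and its log2 fold change over fat pad and rectus femoris was 2.65 ± 0.32 (edgeR adjusted p = 0.000476), and over fat pad and tendon 1.29 ± 0.30 (edgeR adjusted p = 0.00939). The deposited TPM overlapped between these tissues, at 5.31 and 4.51 in the fat pad and 2.64 and 5.49 in the tendon, and gave no call (limma, 0.28 on the log2(TPM + 1) scale, adjusted p = 0.465).

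The 7 platelet and megakaryocyte markers summed to 141 and 171 CPM in the fat pad and to between 10.9 and 15.6 in the other 4 libraries, mostly Pf4, at 106 and 159. The platelet receptor gene Gp6 was at 2.77 and 0.240 CPM in the fat pad and at 0 in both rectus femoris libraries and tendon library 2. The part of these cells in the Itga2b result was not tested. Itgb3, which pairs with Itga2b on platelets and with Itgav elsewhere, did not differ in the same way: it measured 9.68 and 8.10 CPM in the fat pad, 5.98 and 7.68 in the rectus femoris, and 19.5 and 8.21 in the tendon. It passed the test in none of the 3 comparisons.

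Itga4 was the 1 member higher in the rectus femoris than in both other tissues. Its chain pairs with Itgb1 or Itgb7 and binds VCAM-1 and fibronectin. It measured 5.35 and 7.36 CPM in the fat pad, 49.5 and 47.7 in the rectus femoris, and 10.7 and 13.5 in the tendon. The rectus femoris libraries lay far above the other 4, with log2 fold changes of -2.93 ± 0.25 for fat pad over rectus femoris (edgeR adjusted p = 0.000108) and -2.01 ± 0.24 for tendon over rectus femoris (edgeR adjusted p = 0.00568). The latter call was lost without rectus femoris library 1 (edgeR adjusted p = 0.0614) or 2 (edgeR adjusted p = 0.0578). Between fat pad and tendon the value was -0.93, and with length offsets 0.01, and that call was lost without fat pad library 1 (edgeR adjusted p = 0.0689) or tendon library 2 (edgeR adjusted p = 0.0517). In the deposited TPM values the tendon libraries differed more, at 3.63 and 12.6, beside 18.3 and 10.7 in the rectus femoris, and the log2 difference of tendon and rectus femoris by limma was -0.92 (adjusted p = 0.151).

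Muscle satellite cell markers, 4 genes including Pax7 and Myf5, summed to 43.8 and 31.2 CPM in the rectus femoris, 0.874 and 0.258 in the fat pad, and 39.4 and 191 in the tendon, mostly Chodl in both of these tissues. Their part in the Itga4 result was not tested. Itga9, the chain closest to Itga4 and a receptor for tenascin-C, measured 7.90 and 4.45 CPM in the fat pad, 22.7 and 26.0 in the rectus femoris, and 40.8 and 25.8 in the tendon. Rectus femoris and tendon overlapped and the fat pad lay below both, at a log2 fold change of -2.43 ± 0.36 over fat pad and tendon (edgeR adjusted p = 0.00115).

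Of the 6 leukocyte integrin genes tested, 3 were higher in fat pad than in each other tissue and none was lower, beside 29.8% of all genes called higher against the rectus femoris and 27.2% against the tendon. With length offsets 3 and 2 were higher, beside 26.5% and 25.3% of all genes, and the 2 lie near that share. Itgb2, the beta chain that all integrins of this kind but those with Itgb7 share, measured 111 and 112 CPM in the fat pad, 7.60 and 9.12 in the rectus femoris, and 12.2 and 4.95 in the tendon. Both fat pad libraries lay far above the other 4, with log2 fold changes of 3.74 ± 0.42 against the rectus femoris (edgeR adjusted p = 0.000352) and 3.71 ± 0.42 against the tendon (edgeR adjusted p = 0.000394). Itgam, its partner on macrophages and neutrophils, measured 22.1 and 30.4 CPM in the fat pad, 8.92 and 9.09 in the rectus femoris, and 12.7 and 4.45 in the tendon. The fat pad lay above the rest, at 1.61 ± 0.47 on the log2 scale against the tendon (edgeR adjusted p = 0.0221) and 1.54 against the rectus femoris (edgeR adjusted p = 0.0262).

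The Itgam calls were lost without fat pad library 2 (edgeR adjusted p = 0.109 against the tendon and 0.121 against the rectus femoris), and the latter also without rectus femoris library 1 (0.105) or 2 (0.102). About 68.7% of the exonic bases of Itgam are shared with exons of other genes. The largest overlap is with Gm49368, a gene model that had 0 to 96 counts per library. The count of Itgam is therefore uncertain, by an amount that was not tested. Itgb7, the partner of Itga4 and Itgae on lymphocytes, measured 7.93 and 6.63 CPM in the fat pad, 2.33 and 2.60 in the rectus femoris, and 4.28 and 2.42 in the tendon. It was highest in the fat pad with no overlap, at 1.56 ± 0.40 on the log2 scale against the rectus femoris (edgeR adjusted p = 0.0136), and 0.86 with length offsets, where the call was lost (edgeR adjusted p = 0.0964). It was also lost without rectus femoris library 1 (edgeR adjusted p = 0.0836) or 2 (edgeR adjusted p = 0.0664).

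Against the tendon Itgb7 was at 1.12 (edgeR adjusted p = 0.0446), a call that was lost with any 1 of 5 libraries left out, at edgeR adjusted p-values from 0.0754 to 0.176, and kept only without tendon library 1. It was also lost with length offsets (0.56, edgeR adjusted p = 0.252). For these genes the deposited TPM values of the tendon went against the counts: in tendon libraries 1 and 2 Itgb2 had 12.6 and 32.8 TPM, Itgam 4.84 and 14.4, and Itgb7 6.85 and 41.0, each higher in library 2, where the counts were lower. On the TPM scale with limma, Itgb2 remained higher in fat pad than in tendon, at 1.22 (adjusted p = 0.0193), while Itgam stood at -0.44 (adjusted p = 0.424) and Itgb7 at -1.26 (adjusted p = 0.0979).

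The other leukocyte alpha chains were scarce. Itgal, the lymphocyte partner of Itgb2, measured 2.82 and 1.64 CPM in the fat pad and between 0.784 and 1.98 elsewhere, and Itgae and Itgax were at or below 1.55 and 2.40 CPM in every library. Itgad had 9 and 0 counts in the fat pad pair and 4 to 18 elsewhere. None of Itgal, Itgae and Itgax passed the test in any comparison, although Itgal was called higher in fat pad than in rectus femoris with length offsets (1.71, edgeR adjusted p = 0.0469).

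Summed blood cell markers stood higher in the fat pad beside these genes. The 7 macrophage markers summed to 1336 and 2097 CPM there and to between 218 and 318 in the other libraries. Of the 7, 5 were called higher in fat pad than in each other tissue, beside 29.8% and 27.2% of all genes. Mrc1, at 35.9 and 52.5 CPM in the fat pad, was lower than in the rectus femoris, at 64.5 and 67.5. So was Cd163, at 36.4 and 40.4 against 46.4 and 46.3, and neither was called in that comparison. The 8 neutrophil markers summed to 1841 and 244 CPM in the fat pad libraries and to 6.84 or less elsewhere, with S100a9 and Ngp at 0 in tendon library 1. Markers of B cells summed to 77.5 and 20.2 CPM, and those of T and natural killer cells to 32.5 and 23.3, against 1.42 or less and 3.72 or less elsewhere. In fat pad libraries 1 and 2 Itgb2 stood at 111 and 112 CPM and Itgam at 22.1 and 30.4. The part of these cells in the Itgb2, Itgam and Itgb7 results was not tested.

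The remaining beta chains differed in pattern. Itgb1, the partner of most alpha chains, measured 242 and 205 CPM in the fat pad, 297 and 300 in the rectus femoris, and 463 and 556 in the tendon. It was lowest in the fat pad and highest in the tendon with no overlap, and the log2 fold change of fat pad over tendon was -1.19 ± 0.23 (edgeR adjusted p = 0.00396), but against the rectus femoris -0.42 (edgeR adjusted p = 0.149). Itgb6, which pairs with Itgav and activates TGF-beta, chiefly on epithelia, had the largest difference of any member, at 1.28 and 0.222 CPM in the fat pad, 26.9 and 35.6 in the rectus femoris, and 20.3 and 33.1 in the tendon. The fat pad libraries lay far below the other 4, at -5.39 ± 0.78 over fat pad and rectus femoris on the log2 scale (edgeR adjusted p = 0.00107) and -5.16 ± 0.77 over fat pad and tendon (edgeR adjusted p = 0.00129). Without fat pad library 1 or 2 these fold changes ranged from -4.61 to -7.09 and from -4.39 to -6.83, and the calls were kept.

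Itgb4, which pairs with Itga6 in hemidesmosomes and on Schwann cells, measured 5.06 and 2.81 CPM in the fat pad, 12.1 and 23.6 in the rectus femoris, and 107 and 31.1 in the tendon. The tissues did not overlap, but the tendon libraries differed more from each other than those of any other tissue. The log2 fold change over fat pad and tendon was -4.14 ± 0.68 (edgeR adjusted p = 0.002), and -2.94 without tendon library 1, a call that was kept. In the deposited TPM values the tendon libraries were alike, at 17.3 and 19.5. Against the rectus femoris it was -2.19, a call that was lost without fat pad library 1 (edgeR adjusted p = 0.0522), fat pad library 2 (0.129) or rectus femoris library 2 (0.107). The 7 Schwann cell markers moved in the same way between the tendon libraries, with sums of 1764 and 241 CPM, and of 237 and 298 in the rectus femoris. In the fat pad they summed to 711 and 869, of which Pmp22, a myelin protein that other cells also make, made 675 and 829. Their part in the Itgb4 result was not tested.

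Itgb5, which pairs with Itgav as a vitronectin receptor, was the 1 beta chain outside blood cells that was called higher in fat pad than in rectus femoris. It measured 212 and 194 CPM in the fat pad, 117 and 94.6 in the rectus femoris, and 138 and 212 in the tendon. Fat pad and tendon overlapped, and the log2 fold change over the rectus femoris was 0.94 ± 0.26 (edgeR adjusted p = 0.0191). That call was lost with length offsets (0.57, edgeR adjusted p = 0.112) and without any 1 of the fat pad or rectus femoris libraries, at edgeR adjusted p-values from 0.0538 to 0.134. Itgb8, the other TGF-beta activating partner of Itgav, was between 2.16 and 9.30 CPM in all libraries and passed the test in no comparison.

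Among the beta chains, compared per exonic length, Itgb1 made 62.9% and 64.5% of the summed level in the rectus femoris and 63.0% and 65.2% in the tendon, but 36.8% and 34.4% in the fat pad. There Itgb5 stood at 37.0% and 37.3%, but Itgb1 led in the deposited TPM (44.9% and 42.4%, against 31.7% and 32.3% for Itgb5) and in counts with no length correction (40.8% and 38.6%, against 35.7% and 36.4%). Per exonic length Itgb2 made 22.7% and 25.2%, against 2.62% or less in each of the other libraries. Among the alpha chains no gene was dominant in the fat pad: per kilobase of exon Itga5 stood at 6.04 and 6.31 CPM, Itga7 at 5.95 and 4.55, Itga6 at 5.22 and 4.18 and Itgam at 4.40 and 6.06. On that scale Itga5 lay above both values of Itga7 and of Itga6 and overlapped with Itgam. In the deposited TPM Itga5, at 17.5% and 20.9% of the summed alpha chain level, overlapped with Itga7 and lay above Itga6. In counts with no length correction Itga7, at 18.4% and 16.1%, and Itga6 both lay above Itga5, at 11.4% and 13.6%.

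Of the 10 laminin chain genes tested, 9 were lower in fat pad than in tendon, where 31.4% of all genes were. Against the rectus femoris 8 were lower, where 29.6% of all genes were. None was higher by this test. Against the rectus femoris 1 was higher both with length offsets and with scaling by total counts, beside 26.5% and 40% of all genes. The median log2 fold change of the 10 was -2.44 against the tendon and -1.78 against the rectus femoris, where that of all genes was -0.01 and 0.14. With length offsets 6 were lower in each comparison, with medians of -1.89 and -1.40, beside 28.3% and 31.1% of all genes lower. Scaling by total counts gave 9 lower than in the tendon and 6 lower than in the rectus femoris, beside 34.4% and 21.6% of all genes.

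**Figure D3:**
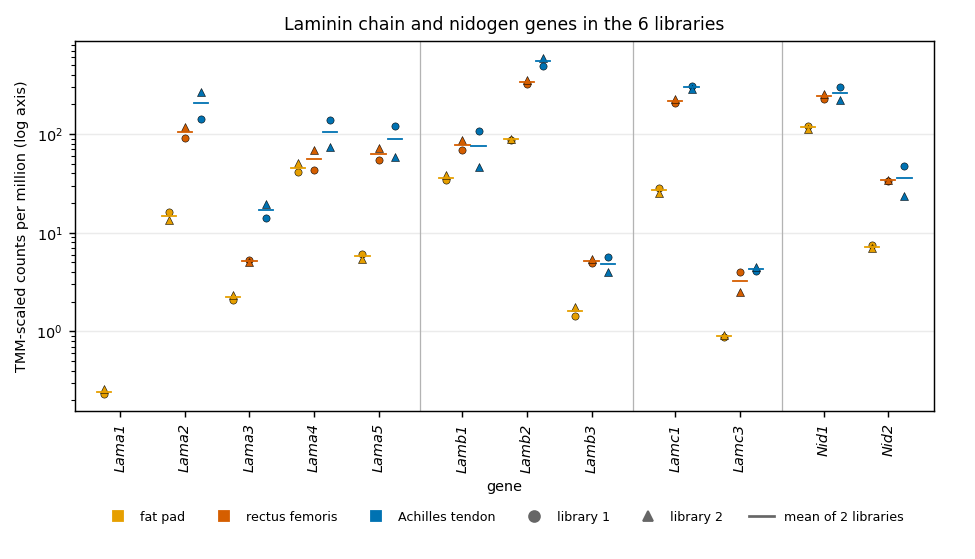
TMM-scaled CPM (log axis) of 10 of the laminin chain genes and the 2 nidogen genes in the 6 libraries, with alpha, beta, gamma chains and nidogens from left to right. Circles are library 1, triangles library 2 and short lines the mean of both; Lama1 has points for the fat pad only. Lama2, Lama5, Lamb2, Lamc1 and Nid2 lie lower in the fat pad than in all 4 other libraries, while Lama4 overlaps between fat pad and rectus femoris.

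Of the alpha chains, Lama5, found in vessels and most mature epithelia, and Lama2, the chain of the muscle fibre and Schwann cell basement membrane, differed most. Lama5 measured 6.13 and 5.47 CPM in the fat pad, 54.0 and 72.6 in the rectus femoris, and 122 and 58.4 in the tendon. Rectus femoris and tendon overlapped and the fat pad lay far below both, with log2 fold changes of -3.96 ± 0.39 against the tendon (edgeR adjusted p = 0.00022) and -3.45 ± 0.38 against the rectus femoris (edgeR adjusted p = 0.000308). Lama2 measured 16.4 and 13.4 CPM in the fat pad, 91.9 and 118 in the rectus femoris, and 144 and 266 in the tendon. The tissues did not overlap, at -3.78 ± 0.36 on the log2 scale against the tendon (edgeR adjusted p = 0.000194) and -2.82 against the rectus femoris (edgeR adjusted p = 0.000474).

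Lama3, a chain of epithelial laminins, measured 2.10 and 2.36 CPM in the fat pad, 5.34 and 5.00 in the rectus femoris, and 14.1 and 19.8 in the tendon. Its tissues were in that order with no overlap, at -2.92 ± 0.29 against the tendon on the log2 scale (edgeR adjusted p = 0.000246). Against the rectus femoris it was -1.21, and with length offsets -0.60, where the call was lost (edgeR adjusted p = 0.143). Lama4, the chain of vessel, fat cell and muscle interstitial basement membranes, measured 41.0 and 50.7 CPM in the fat pad, 43.5 and 69.4 in the rectus femoris, and 137 and 73.6 in the tendon. Fat pad and rectus femoris overlapped, and against the tendon the log2 fold change was -1.20 ± 0.35 (edgeR adjusted p = 0.0233). That call was lost with length offsets (-0.26, edgeR adjusted p = 0.484) and without fat pad library 1 (edgeR adjusted p = 0.136), fat pad library 2 (0.0700) or tendon library 1 (0.121).

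The shares of the laminin alpha chains are given as a description, with no test. Per exonic length Lama4 made 65.8% and 73.1% of the summed alpha chain level in the fat pad, and Lama2 19.5% and 14.3%. In the rectus femoris Lama2 made 38.9% and 36.5%, Lama5 32.8% and 32.2%, and Lama4 24.9% and 29.0%. In the deposited TPM the leading chain there was Lama5 instead, at 42.3% and 42.8%, with Lama2 at 28.0% and 23.8% and Lama4 at 26.8% and 30.3%. In the tendon the libraries differed: Lama2 made 27.4% in library 1 and 55.5% in library 2, Lama4 35.4% and 20.8%, and Lama5 33.2% and 17.5%. In the deposited TPM values the tendon libraries did not differ in this way, with Lama2 at 23.9% and 22.2%, Lama4 at 31.2% and 32.8%, and Lama5 at 41.1% and 40.6%, and the fat pad shares of Lama4 were 65.4% and 72.6%. Lama1, the chain of embryonic basement membranes, had 21 and 29 counts in the fat pad, or 0.465% and 0.464% of the alpha chain level.

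**Figure D4:**
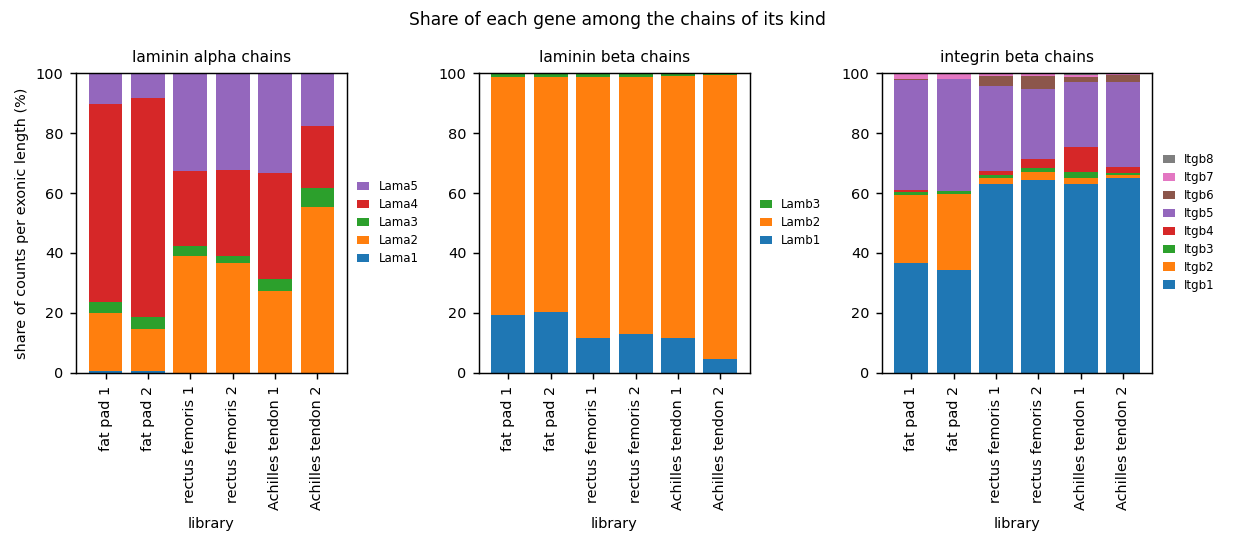
Share in percent of each gene among the laminin alpha, laminin beta and integrin beta chains, from counts divided by exonic length, in each of the 6 libraries. Each bar is 1 library and sums to 100. Lama4 makes most of the laminin alpha level in the fat pad only, Lamb2 leads the beta chains in every library, and Itgb2 takes a larger share in both fat pad libraries than in the other 4.

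The beta chains had 1 leading gene in every library. Lamb2, the beta chain of mature muscle, nerve and vessel laminins, made between 78.2% and 94.9% of the beta chain level per exonic length. It measured 87.1 and 89.5 CPM in the fat pad, 323 and 351 in the rectus femoris, and 496 and 598 in the tendon. The tissues did not overlap, at -2.63 ± 0.23 on the log2 scale over fat pad and tendon (edgeR adjusted p = 0.000156). Lamc1, the gamma chain of nearly all laminins, averaged 27 ± 2.34 CPM in the fat pad, 217 ± 15.3 in the rectus femoris and 299 ± 16.1 in the tendon (SD, n = 2 each), from 28.7 and 25.4, 207 and 228, and 311 and 288 in the libraries. It had the smallest adjusted p of any member, at -3.01 ± 0.21 over fat pad and rectus femoris (edgeR adjusted p = 6.55e-05), and was at -3.47 over fat pad and tendon (edgeR adjusted p = 6.98e-05).

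Lamb1, the beta chain of embryonic and many adult laminins, differed less. It measured 34.4 and 38.1 CPM in the fat pad, 69.5 and 86.3 in the rectus femoris, and 107 and 46.8 in the tendon. The fat pad lay below both other tissues, which overlapped, at -1.10 ± 0.37 on the log2 scale against the rectus femoris (edgeR adjusted p = 0.0370) and -1.08 against the tendon (edgeR adjusted p = 0.0399). Both calls were lost with length offsets (-0.49 and -0.20). They were also lost without either fat pad or either rectus femoris library, at edgeR adjusted p-values from 0.0574 to 0.174, and the call against the tendon without tendon library 1 (edgeR adjusted p = 0.278).

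Lamb3, which joins Lama3 in the laminin of epidermal basement membrane, was low. It measured 1.43 and 1.75 CPM in the fat pad, 4.93 and 5.46 in the rectus femoris, and 5.66 and 3.99 in the tendon. It was lower in the fat pad with no overlap, at -1.71 ± 0.38 against the rectus femoris (edgeR adjusted p = 0.00731), and against the tendon at -1.60, a call that length offsets ended (-0.98, edgeR adjusted p = 0.0521).

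Of 7 fixed epidermal markers 6 were listed, and they summed to between 9.66 and 17.2 CPM, mostly Trp63 and Krt10, with Krt14 and Krt15 at 0 counts in every library but tendon library 1, where they were at 0.193 and 0.0515 CPM. Lamc3 measured 0.885 and 0.916 CPM in the fat pad, 4.02 and 2.49 in the rectus femoris, and 4.10 and 4.47 in the tendon. It was lower in the fat pad with no overlap, at -2.25 against the tendon (edgeR adjusted p = 0.00435) and -1.85 against the rectus femoris, where the call was lost without rectus femoris library 1 (edgeR adjusted p = 0.0781).

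Both nidogens were lower in fat pad than in either other tissue, and Nid2 by more. Nid1 measured 121 and 113 CPM in the fat pad, 228 and 256 in the rectus femoris, and 303 and 222 in the tendon. Nid2, its less abundant relative, measured 7.46 and 6.93 CPM in the fat pad, 33.7 and 34.5 in the rectus femoris, and 47.8 and 23.6 in the tendon. For each gene rectus femoris and tendon overlapped and the fat pad lay below both. Over fat pad and tendon the log2 fold change was -1.17 ± 0.23 for Nid1 (edgeR adjusted p = 0.00451) and -2.31 ± 0.34 for Nid2 (edgeR adjusted p = 0.00115). The Nid1 call was lost with length offsets (-0.51, edgeR adjusted p = 0.0687), and that against the rectus femoris (-1.05) without rectus femoris library 2 (edgeR adjusted p = 0.0537). Per exonic length Nid1 made 92.3% and 92.4% of the nidogen level in the fat pad and between 82.5% and 87.5% elsewhere.

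The 10 members higher in the tendon than in the rectus femoris were Itga2, Itga2b, Itga3, Itga5, Itga6, Itga8, Itga10, Itgav, Itgb1 and Lama3, and so 8 of them were integrin alpha chains. The largest were Itga10, at 2.88 ± 0.30 on the log2 scale (edgeR adjusted p = 0.0047), Itga2, at 2.42 ± 0.29 (edgeR adjusted p = 0.00568), and Itga8, at 1.94 ± 0.25 (edgeR adjusted p = 0.0066). Lama3, at 1.71 ± 0.28 (edgeR adjusted p = 0.0113), was the 1 laminin chain among them. Both tendon libraries lay above both rectus femoris libraries for each of the 10. With length offsets the calls of Itgav (0.39, edgeR adjusted p = 0.160) and Itgb1 (0.62, edgeR adjusted p = 0.0785) were lost. None of these calls held with each library left out in turn: without rectus femoris library 1 a single member, Itga10, was called by the same edgeR test (43 of all genes), and without library 2 no member was (19 of all genes). In the fit of all 6 libraries tenocyte markers were called higher in the tendon at all 7 genes and slow muscle fibre markers at all 6. Of 8 fast muscle fibre markers 4 were called lower. Of all genes 13.3% were called higher and 12.7% lower in that fit. The part of these cells in these results was not tested.

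Within a tissue the libraries agreed least in the tendon. Of 36 members that reached 100 counts in 1 tendon library or more, 10 were more than 2-fold lower in library 2 and none was more than 2-fold higher, with a median log2 ratio of -0.43. Itgb4 differed most, at -1.79 (95% counting interval -1.85 to -1.72), and Itgb8, Itgax, Itgam, Itgb2, Itgb3, Lamb1, Itgal, Lama5 and Nid2 followed. Lama2 was the highest, at 0.89. In the fat pad 2 of 37 members were more than 2-fold lower in library 2, Itga11 and Itgb6 (-2.53), and 1, Itgax, was higher. In the rectus femoris none of 34 differed by 2-fold. The deposited TPM values did not follow the counts here. In the tendon none of the 36 was more than 2-fold lower in library 2 by TPM and 10 were more than 2-fold higher, 5 of them among the 10 that were lower by counts: Itgb2, for example, stood at 12.6 and 32.8 TPM and Itgam at 4.84 and 14.4. In the rectus femoris 8 of 34 were more than 2-fold lower in library 2 by TPM, among them Lama2 (30.2 and 11.8 TPM) and Nid1 (189 and 89.6 TPM). Which of the deposited values hold is not known from the files. With 1 library on each side there is no replicate check on these ratios, and the intervals cover counting error only. These counts of members have no share of all genes beside them, so they are not read as a trait of the members.

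**Figure D5:**
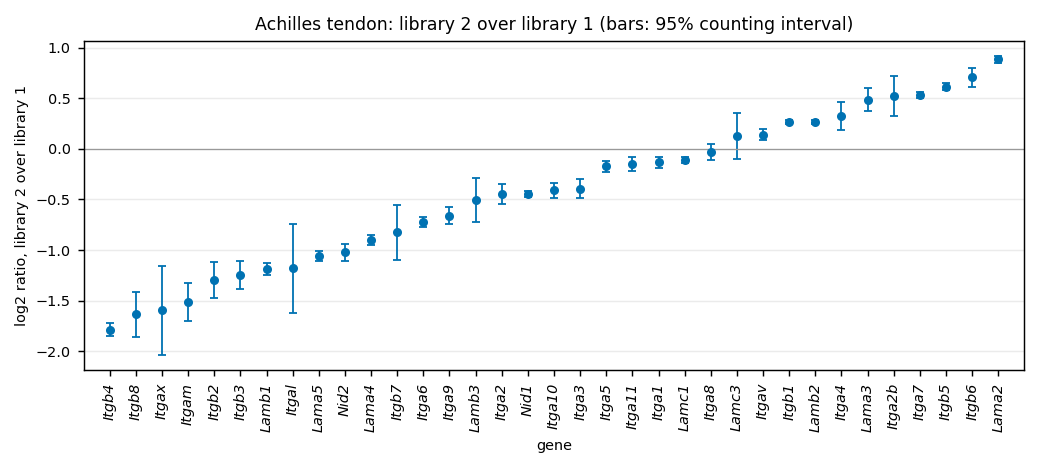
Log2 ratio of Achilles tendon library 2 over library 1 (vertical axis) for 35 of the 36 members that reached 100 counts in either, in rising order. Bars are 95% counting intervals. Itgb4 is lowest at -1.79 and Lama2 highest at 0.89, and 10 members lie below -1.

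Counts of the lists that follow are read against all genes tested, where the fat pad had 29.8% above and 29.6% below the rectus femoris and 27.2% above and 31.4% below the tendon, and the tendon had 13.3% above and 12.7% below the rectus femoris (with length offsets 26.5% and 31.1%, 25.3% and 28.3%, and 11.4% and 18.1%). The other proteins of the basement membrane were, like the laminins, mostly lower in the fat pad. Of 29 tested (collagen IV, XV and XVIII chains, perlecan, agrin, fibulins, SPARC and others), 17 were lower and 4 higher in fat pad than in rectus femoris, 21 lower and none higher than in the tendon, and 10 higher and 1 lower in the tendon than in the rectus femoris. The medians were -1.79, -2.15 and 0.57, and with length offsets -1.32, -1.48 and 0.42, with 16, 18 and 1 lower and 3, 0 and 8 higher. Col15a1, a collagen of the outer basement membrane, measured 2.93 and 4.41 CPM in the fat pad and 239 and 119 in the tendon, at -5.61 ± 0.43 (edgeR adjusted p = 0.00011). Hmcn2, a hemicentin, was at -5.39 ± 0.36 over fat pad and rectus femoris (edgeR adjusted p = 5.92e-05), and Smoc1, a calcium-binding matrix protein, was higher in the fat pad at 3.13 ± 0.81 (edgeR adjusted p = 0.0143). Col7a1, the anchoring fibril collagen, stood at 44.1 and 37.5 CPM in the rectus femoris and 5.67 and 8.96 in the tendon and was the 1 gene of the list lower in the tendon (-2.48, edgeR adjusted p = 0.00532), while Frem2 was the furthest above (4.05, edgeR adjusted p = 0.0121).

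Integrin ligands other than laminins were split between fat pad and rectus femoris, and 21 were higher in tendon than in rectus femoris. Of 30 tested, 12 were higher and 10 lower in fat pad than in rectus femoris, 3 higher and 16 lower than in the tendon, and 21 higher and none lower in the tendon than in the rectus femoris. The 10 lower than in the rectus femoris lie near the share of all genes. With length offsets 12 were higher and 9 lower, 3 and 15, and 21 and none, with medians of 0.35, -1.20 and 1.59. Thbs1, thrombospondin 1, measured 5.83 and 8.38 CPM in the fat pad, 36.5 and 53.6 in the rectus femoris and 595 and 837 in the tendon, at -6.65 ± 0.40 over fat pad and tendon (edgeR adjusted p = 6.26e-05). Vcam1, the cell-surface ligand of the Itga4 chain, was higher in the fat pad, at 48.4 and 68.0 CPM against 11.2 and 10.6 in the rectus femoris and 14.2 and 12.6 in the tendon, and so ran opposite to Itga4 against the rectus femoris. Its log2 fold change over fat pad and tendon was 2.12 ± 0.22 (edgeR adjusted p = 0.0003). Tnc, tenascin-C and a ligand of the Itga9 chain, was lower in fat pad than in rectus femoris (-2.77, edgeR adjusted p = 0.00232). Ibsp, bone sialoprotein, was called higher in fat pad than in rectus femoris, from unequal levels of 87.8 and 9.37 CPM in the former and 0.123 and 0 in the latter.

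Among 35 proteins that bind integrin tails or carry their signal inside the cell, 11 were higher and 14 lower in fat pad than in rectus femoris, 7 higher and 18 lower than in the tendon, and 13 higher and 3 lower in the tendon than in the rectus femoris. The medians were -0.19, -0.77 and 0.65. With length offsets the medians were 0.20, -0.28 and 0.47, the first of them with its sign turned, and 12 were higher and 14 lower, 6 and 13, and 10 and 4. The 11 higher against the rectus femoris lie near the share of all genes. Itgb1bp2, melusin, which binds the Itgb1 chain in striated muscle, was nearly absent from the fat pad at 0.288 and 0.116 CPM, and stood at 273 and 229 in the rectus femoris and 61.5 and 64.7 in the tendon (-10.30 ± 0.47 over fat pad and rectus femoris, edgeR adjusted p = 3.75e-05). Lpxn, leupaxin, a paxillin relative of leukocytes and bone cells, ran the other way, at 21.6 and 30.4 CPM in the fat pad and 1.52 and 1.74 in the rectus femoris (3.99 ± 0.44, edgeR adjusted p = 0.0003). Tns3, a tensin, was the furthest above in the tendon over the rectus femoris (2.19, edgeR adjusted p = 0.0047).

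Of 17 other laminin receptors and the enzymes that sugar-coat dystroglycan, 5 were higher and 8 lower in fat pad than in rectus femoris, 4 higher and 10 lower than in the tendon, and 5 higher and 1 lower in the tendon than in the rectus femoris. The 5 and the 4 higher in the fat pad lie near the shares of all genes. With length offsets 4 were higher and 9 lower, 4 and 8, and 4 and 2, with medians of -0.67, -0.46 and -0.13. Dag1, dystroglycan, the non-integrin laminin receptor of muscle, measured 59.4 and 64.3 CPM in the fat pad, 484 and 515 in the rectus femoris and 359 and 372 in the tendon, at -3.01 ± 0.22 over fat pad and rectus femoris (edgeR adjusted p = 7.18e-05). Cd9, a tetraspanin that sits beside integrins, was higher in the fat pad, at 673 and 694 CPM against 51.5 and 43.4 (3.85 ± 0.27, edgeR adjusted p = 6.74e-05), as was the syndecan Sdc2 against the tendon (2.89, edgeR adjusted p = 0.000128).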

How the data were processed

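The authors deposited, per tissue, a table of whole-number read counts per gene, not normalized, and a table with TPM per library, the log2 fold change of library 1 over library 2, a p-value and its −log10, per the file headers. GRCm39, DESeq2 1.4.5, Bowtie2 and RSEM 1.3.1 stand in the submitters' processing notes with no roles; counting method, strand setting, annotation and filters: not given in the sources used here. Symbols came from the deposited tables for 18924 genes, from a names table for 1740, and 8 had none. Number of per-sample columns not used: 0.

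Tissues were compared on the counts with edgeR 4.0.16 in R 4.3.3 (TMM, filterByExpr, 1 fit of all 6 libraries with a term per tissue, quasi-likelihood test, Benjamini-Hochberg adjustment over 15856 genes, threshold 0.05; biological coefficient of variation 0.336). Standard errors are the log2 fold change over the square root of F. Alternatives were total-count and DESeq2 scaling, the Wald test of DESeq2 1.42.0, no filter, only the libraries compared, a replicate block, each library left out, and limma 3.58.1 on log2(TPM + 1) or log2(TPM + 0.1) for genes of at least 1 TPM in 2 libraries or with no filter; such fold changes understate those of low genes. Offsets by exonic length (GENCODE M21, GRCm38) were added after seeing the data. The fits were tested on simulated data. All members may be named; those called with a log2 fold change of at least 1 in size, no overlap and at least 5 CPM are given in full, and of each pathway list the extreme called genes of at least 20 CPM. The libraries of each pair differed by more than sampling noise (chi-square per degree of freedom 75.7 to 507) and were kept apart. The members, the 4 pathway lists and the marker lists were chosen with earlier results of these data known. Promoters come from RefSeq on GRCm38.p6; no other coordinates are given. A few genes of these lists are not reported here, though counts and sums over a list include them.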

Additional observations from a re-analysis of the deposited data

How the results depend on the processing

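Most of 108 member fold changes kept their direction and their side of the threshold: 102 by the DESeq2 Wald test, 103 with DESeq2 size factors, all 108 with no filter, 84 with length offsets and 77 with total counts. By limma on TPM fewer did: 70 of 105 with pseudocount 1, 74 of 105 with pseudocount 0.1 and 73 of 108 with no filter. Members called higher for fat pad over rectus femoris fell to 2 with each of the 3 TPM settings, and over tendon to 2 with total counts and to 1 with each TPM setting. Members higher in the tendon than in the rectus femoris were 25 with total counts and 20, 18 and 18 with TPM (pseudocount 1, pseudocount 0.1, no filter), and those lower were 0 with each TPM setting; total counts called 6367 of all genes there, against 4127. Leaving out 1 library gave 2 to 5 higher and 16 to 21 lower (6892 to 9671 of all genes) for fat pad over rectus femoris, with the tendon in its place 2 to 4 and 22 to 27 (7825 to 8539), and for tendon over rectus femoris 0 to 12 and 0 to 1 (19 to 4380). An arm left with 1 library is assumed to vary like the other tissues.

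Among genes called in either of the fits compared, directions that turned in fat pad over tendon were Itga4 with length offsets (0.013), and with TPM Itgae (-0.72 with pseudocount 1 and with no filter), Itgam (-0.44 with both, -0.47 with pseudocount 0.1), and Itgb7 (-1.26 with both, -1.34). In tendon over rectus femoris Lamb3 turned with TPM, to 1.06 with both and 1.53 with pseudocount 0.1. Length offsets also turned 7 fold changes that neither fit called, among them Itga1, Itga6 and Lama4 in fat pad over rectus femoris and both nidogens in tendon over rectus femoris. The cause was not tested.

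With a replicate block by library number, the fat pad had 5 members above and 21 below the rectus femoris, and 3 above and 25 below the tendon, and the tendon had 7 above and 1 below the rectus femoris (8649, 8650 and 2759 of all genes called). The correlations between tissues of the difference of library 1 and library 2 were -0.03, 0.00 and -0.17. They cannot show whether equal numbers share an animal, since each difference comes from 1 pair of libraries and also holds technical differences.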

Other observations

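In the authors' deposited tables, which set library 1 against library 2 of each tissue, 0 of 39 members listed in the fat pad, 0 of 38 in the rectus femoris and 1 of 39 in the tendon had an adjusted p under 0.05. The 1 member was Lama1, at a log2 fold change of -9.40 (adjusted p = 0.0011) in the authors' deposited table. Its TPM values there are 0 and 0.764, and the deposited tendon counts do not list it.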
